A study of Mus musculus with 30 samples.

Results

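Genes of potassium channels, of the beta subunits of the sodium pump and of a potassium cotransporter were measured in mouse macrophages, above all after valinomycin, a small molecule that carries potassium ions across membranes. The 8 genes were taken by symbol and Ensembl gene ID from the 43629 gene IDs counted in each library, with earlier results of these data known. They were Kcnn4, Kcnj2, Kcnk6, Kcnk12, Kcnk13, Atp1b1, Atp1b3 and Slc12a2. The 30 libraries hold messenger RNA of macrophages grown from C57BL/6 bone marrow in CSF-1 (20 ng/mL), the growth factor of these cells, until day 7. In the wild type experiment 4 groups of 3 libraries were left unstimulated, given IL-4 (20 ng/mL), given IL-4 with prostaglandin E2 (PGE2, 10 µM) or given IL-4 with valinomycin (10 nM). In the shRNA experiment cells carrying a lentiviral control shRNA or an shRNA against the transcription factor Etv1 were left unstimulated, given IL-4 or given IL-4 with PGE2, in 6 groups of 3 libraries. The labels give no stimulation time, no hairpin sequences and no number of hairpins, and all cells of a group are a mixed culture, not a clone. Whether the 3 libraries of a group stem from separate animals or cultures is not said. The p-values therefore reflect spread among the libraries at hand, and that spread may be technical.

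The sodium pump (Na+/K+-ATPase) uses ATP to move sodium out of the cell and potassium in, and so builds the gradients that other transporters use. Its catalytic part needs a beta subunit such as Atp1b1 or Atp1b3 to fold and to reach the plasma membrane. Potassium then leaves through channels, which makes the inside of the cell negative. Kcnj2 encodes an inward rectifier that holds the resting potential, Kcnn4 a channel that opens when calcium rises, and Kcnk6, Kcnk12 and Kcnk13 encode background channels of the tandem pore domain family. Kcnk6 in macrophages and Kcnk13 in microglia are known as routes for the potassium loss that precedes activation of the inflammasome. Slc12a2 encodes a cotransporter that brings sodium, potassium and chloride into the cell and takes part in volume control. IL-4 drives alternative activation of macrophages, and PGE2 acts on receptors that raise cyclic AMP.

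Each wild type library held 10514496 to 13414293 counts, and each shRNA library 6924973 to 30473040 (median 10303938). A count of 3 in 1 library, used as the floor, corresponded to 0.22 to 0.292 CPM (counts scaled to a common library size) in wild type and 0.108 to 0.403 CPM in shRNA libraries, and it covers counting error only. The 6 macrophage markers (Adgre1, Csf1r, Cd68, Itgam, Mertk, Fcgr1) were found in all groups and summed to 7040 to 7940 CPM in wild type and 4440 to 6130 CPM in shRNA libraries. The 3 control shRNA libraries numbered 2 stood apart from the others of their groups, with a chi-square per degree of freedom of 12.13 to 20.34 over their 6 replicate pairs against 1.235 to 6.69 over the other 24 replicate pairs. Results of the shRNA experiment that change without them are given with and without them. Etv1 itself was lower under its hairpin by 1.69, 1.39 and 1.67 on the log2 scale in unstimulated, IL-4 and IL-4 with PGE2 cells, as the labels say (edgeR adjusted p = 1.16e-06, 4.41e-06 and 5.4e-08).

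Per length of exon, Atp1b3 was the highest of the 8 genes and Atp1b1 the lowest. In RPKM, which is CPM per kilobase of exon, the group means of Atp1b3 ran from 116 to 125 in wild type cells and from 107 to 206 in shRNA cells. Kcnn4 followed with 15.4 to 57.0 RPKM in wild type cells, then Kcnk6 with 19.2 to 31.5 and Kcnk13 with 21.0 to 22.3, and the ranges of these 3 channels overlapped. Kcnj2 spanned the widest wild type range for its level, 1.23 to 15.7 RPKM. Slc12a2 (ENSMUSG00000024597, chromosome 18, 57878678 to 57946821, plus strand, GRCm38) at 0.755 to 1.15 RPKM and Kcnk12 at 0.207 to 0.862 RPKM were low there. These orders are by the mean over groups. In shRNA cells Kcnk13 stood above Kcnk6, and Kcnk12, at 0.751 to 15.2 RPKM, above Kcnj2 and Slc12a2. Single groups departed from this: in control shRNA cells Kcnk12 was below Kcnj2 both unstimulated (5.5 against 12.1 RPKM) and with IL-4 (0.751 against 5.13 RPKM), and with IL-4 it was also below Slc12a2 at 1.32 RPKM.

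Atp1b1 was at the edge of detection. It had 12 counts over the 12 wild type libraries, with 0, 0 and 2 counts unstimulated, 0, 2 and 0 with IL-4, 1, 1 and 2 with PGE2 and 2, 1 and 1 with valinomycin. Over the 18 shRNA libraries it had 13 counts and never more than 3 in 1 library. Every library was thus at or under the floor, no fold is given, and Atp1b1 passed the filter on low counts in neither experiment. The gene (ENSMUSG00000026576) lies on chromosome 1 (164437109 to 164458355, minus strand, GRCm38) and overlaps Nme7 on the plus strand, so with no stated strand setting of the counting even these few reads cannot be told apart from Nme7 reads. The other 7 genes were tested in both experiments. Kcnk12 passed the filter in wild type cells only through its unstimulated libraries, where it was highest.

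The genes that moved most lie at Kcnn4 (ENSMUSG00000054342, chromosome 7, 24370263 to 24386690, plus strand), Kcnj2 (ENSMUSG00000041695, chromosome 11, 111066164 to 111076821, plus strand), Kcnk12 (ENSMUSG00000050138, chromosome 17, 87745801 to 87797994, minus strand), Atp1b3 (ENSMUSG00000032412, chromosome 9, 96332655 to 96364442, minus strand) and Kcnk6 (ENSMUSG00000046410, chromosome 7, 29221926 to 29232515, minus strand), all on GRCm38. Kcnk13 (ENSMUSG00000045404) lies on chromosome 12, 99964499 to 100062682, on the plus strand. The 250 bases before a transcription start were read from RefSeq promoters on GRCm38.p6, which matched 6 of the 8 genes, Kcnk6 and Slc12a2 aside. Shown 5′ to 3′ on the strand of the gene are those of Kcnn4 and Kcnj2, which fell with PGE2 in all 3 kinds of cells, and of Atp1b3 and Kcnk12, which rose under the Etv1 hairpin in all 3 conditions. They are chr7:24370013-24370262, chr11:111065914-111066163, chr9:96364432-96364681 and chr17:87797995-87798244.
Kcnn4: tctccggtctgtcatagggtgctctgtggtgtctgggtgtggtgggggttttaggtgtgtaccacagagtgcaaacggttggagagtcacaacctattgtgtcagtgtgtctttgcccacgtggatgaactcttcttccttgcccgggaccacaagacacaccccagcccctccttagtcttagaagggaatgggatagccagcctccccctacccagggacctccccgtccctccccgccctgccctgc
Kcnj2: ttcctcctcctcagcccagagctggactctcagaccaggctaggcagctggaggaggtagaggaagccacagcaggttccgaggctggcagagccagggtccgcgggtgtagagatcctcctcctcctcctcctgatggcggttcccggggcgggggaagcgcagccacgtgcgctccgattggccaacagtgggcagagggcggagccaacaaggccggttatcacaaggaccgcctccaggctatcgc
Atp1b3: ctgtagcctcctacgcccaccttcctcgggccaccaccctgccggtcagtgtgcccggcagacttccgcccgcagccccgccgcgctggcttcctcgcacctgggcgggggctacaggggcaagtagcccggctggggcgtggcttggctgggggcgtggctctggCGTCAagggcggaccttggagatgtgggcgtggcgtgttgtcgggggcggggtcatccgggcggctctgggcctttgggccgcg
Kcnk12: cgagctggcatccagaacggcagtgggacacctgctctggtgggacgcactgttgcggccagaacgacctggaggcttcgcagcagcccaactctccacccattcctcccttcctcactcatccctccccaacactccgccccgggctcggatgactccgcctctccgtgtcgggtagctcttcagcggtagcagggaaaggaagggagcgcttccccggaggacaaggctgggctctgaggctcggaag

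Capitals mark a match to 1 of 4 motifs, searched on both strands: the full cyclic AMP response element TGACGTCA, its half-site TGACG, which the full element contains, the ETS-type sequence CCGGAA and a STAT6-type palindrome, TTC and GAA with any 4 bases between them. They are held by 1.55%, 17.8%, 12% and 5.85% of the 32851 windows of this length in the table. The Kcnn4, Kcnj2 and Kcnk12 windows held none of the 4. Their letters do hold GGAA, the shorter end of CCGGAA, which was not searched. The Atp1b3 window held 1 half-site, on the other strand, with its first base 84 bases before the start. A start that RefSeq gives further into Atp1b3 had 1 CCGGAA 190 bases before it. No GENCODE M21 transcript of Atp1b3 holds the first bases after that start. The Kcnk13 window had 1 STAT6-type palindrome 248 bases before its start. These matches are descriptions of the letters and not of binding.

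**Figure D1:**
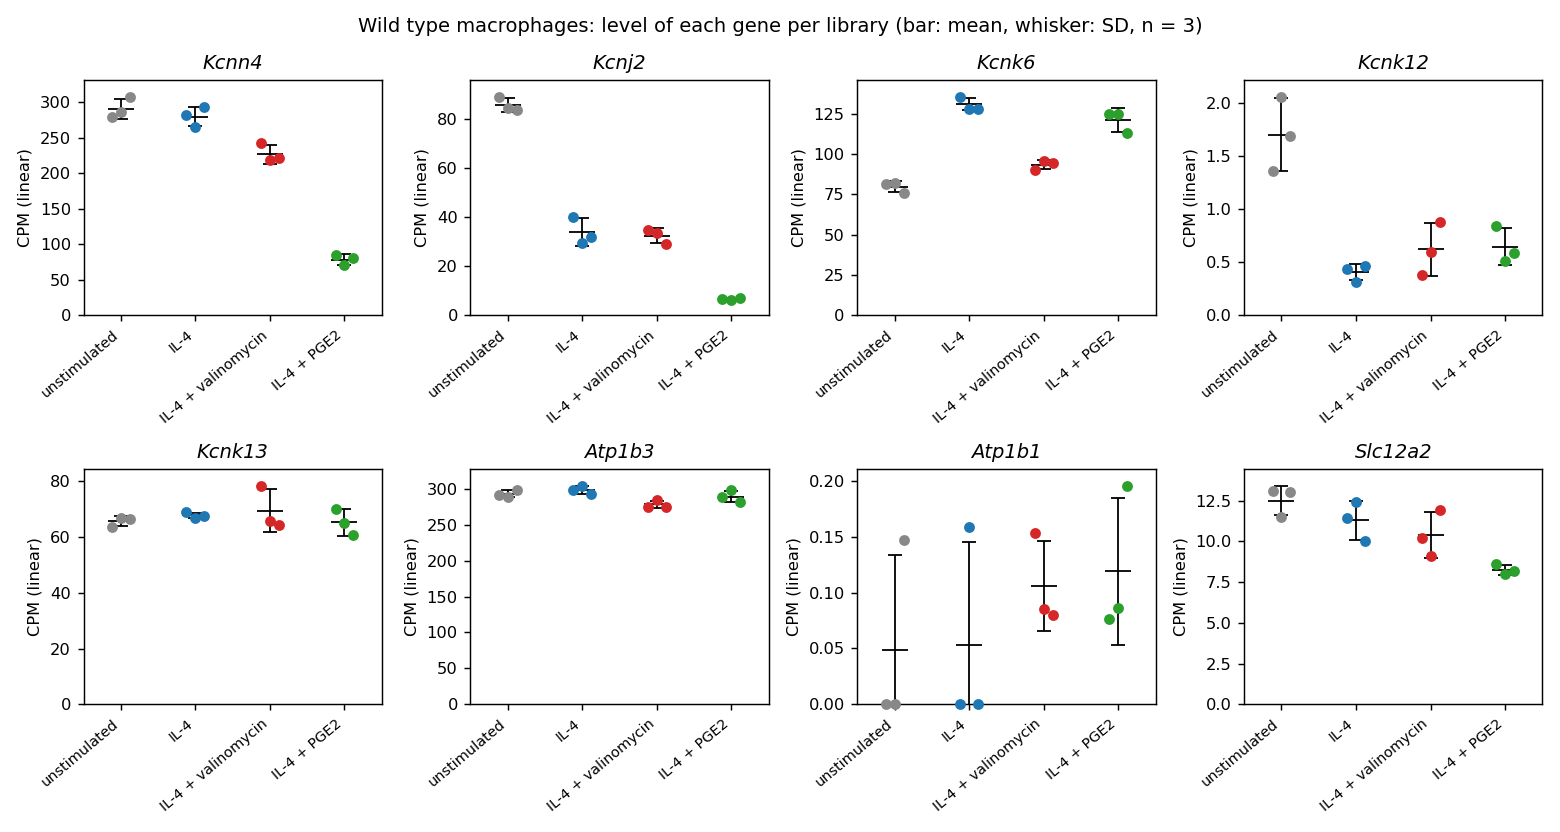
Level in CPM (linear axis from 0, own scale for each gene) of the 8 genes in each wild type library, by group, with the mean and SD of 3 libraries. Kcnn4 and Kcnj2 are lowest with IL-4 and PGE2, Kcnk6 is highest with IL-4, and the Atp1b3 libraries lie between 275 and 303 CPM in all 4 groups.

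IL-4 with valinomycin was set against IL-4 alone, which asks what a potassium ionophore does to the cell's own potassium handling genes. It lowered Kcnk6 and Kcnn4, both by less than 1.5-fold. The beta subunit Atp1b3, the inward rectifier Kcnj2, the background channels Kcnk12 and Kcnk13 and the cotransporter Slc12a2 did not pass the test. That made 2 of the 7 tested genes called, both lower, where 38.4% of the 12824 genes tested were called, 19.4% higher and 18.9% lower. The count is therefore no larger than that of genes at large.

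Kcnk6 stood at 90.1, 95.4 and 94.2 CPM with IL-4 and valinomycin against 135, 128 and 128 CPM with IL-4 alone. The groups did not overlap, and Kcnk6 fell by 28.6%, a log2 change of -0.49 ± 0.05 (SE; edgeR adjusted p = 9.44e-08). Its level with valinomycin still lay above the 81.1, 82.2 and 75.7 CPM of unstimulated cells. Kcnn4 stood at 243, 219 and 221 CPM with valinomycin against 282, 266 and 294 CPM, and again the groups did not overlap. It fell by 18.9% (log2 change -0.30 ± 0.06, adjusted p = 0.000256). In bulk RNA fewer cells with a transcript and less transcript per cell cannot be told apart, here and in what follows.

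For the pump's beta subunit, the Atp1b3 libraries stood at 275, 284 and 275 CPM with valinomycin against 298, 303 and 292 CPM with IL-4 and did not overlap. Their difference of -0.10 ± 0.04 on the log2 scale missed the threshold (adjusted p = 0.0631), and with scaling to library totals alone it was -0.113 with an adjusted p of 0.0349.

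The remaining members had small or imprecise differences. Kcnj2 stood at 34.9, 33.5 and 29.1 CPM with valinomycin against 40.1, 29.4 and 32.0 CPM with IL-4 (log2 difference -0.05 ± 0.09, adjusted p = 0.684), so the groups overlapped. Kcnk13 stood at 78.2, 65.9 and 64.3 against 68.9, 67.0 and 67.6 CPM (0.04 ± 0.07, adjusted p = 0.698), with 1 valinomycin library above all others. Slc12a2, at 10.2, 9.09 and 11.9 against 11.4, 12.4 and 10.0 CPM, also overlapped (-0.11 ± 0.12, adjusted p = 0.469). For Kcnk12, with 5, 7 and 11 counts against 5, 4 and 6, the standard error of 0.45 around a log2 difference of 0.59 leaves a wide range of changes undetectable at this depth (adjusted p = 0.324).

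Markers of other cell types were summed in the same libraries. All 5 dendritic cell markers, mostly Itgax, gave 693 to 806 CPM with valinomycin and 650 to 773 CPM with IL-4, which overlap. All 6 neutrophil markers, mostly S100a8 and S100a9, gave 125 to 164 CPM against 172 to 194 CPM, which do not, and the 6 macrophage markers gave 7200 to 7350 against 7540 to 7630 CPM. None of these markers was at 0 in either group. Their part in the valinomycin results was not tested.

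Across a wider set of potassium and sodium transport genes, members included, valinomycin changed few but changed 1 strongly. Of 158 genes on 11 lists (sodium pump, the potassium channel families, cotransporters and their kinases, volume-regulated and ATP-gated channels, organellar channels and exchangers), 53 were tested, and 5 rose and 6 fell, 20.8% against 38.4% of all genes tested. The median log2 difference of the 53 was -0.04, beside -0.027 over all genes. Sgk1, a kinase that promotes sodium uptake and acts on many channels and pumps, rose from 114, 112 and 115 CPM to 358, 333 and 319 CPM (log2 change 1.57 ± 0.05, adjusted p = 8.03e-16). The other genes that rose were Tmem38b, a potassium channel of the endoplasmic reticulum (0.61 ± 0.09), Lrrc8d, a subunit of volume-regulated anion channels (0.43 ± 0.06), Slc8b1, the mitochondrial sodium-calcium exchanger (0.32 ± 0.06), and Slc8a1, its plasma membrane relative (0.34 ± 0.11, adjusted p = 0.0174). The Slc8a1 call was lost without any 1 of 3 libraries, IL-4 libraries 2 and 3 and valinomycin library 2 (adjusted p at most 0.111). Kcnk6 and Kcnn4 were 2 of the 6 that fell, and Kcnab2, an auxiliary subunit of voltage-gated potassium channels (-0.29 ± 0.04), and Fxyd5, a pump regulator (-0.16 ± 0.04, adjusted p = 0.00602), were among the others. Fxyd5 lost its call without valinomycin library 2 (adjusted p = 0.0792). None of the 5 tested voltage-gated alpha subunits and none of the 5 tested cation-chloride cotransporters passed the test.

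For PGE2 the reference was again the 3 IL-4 libraries, so these values share their controls with those of valinomycin. It sharply lowered 2 channels, the inward rectifier Kcnj2 and the calcium-activated Kcnn4, and lowered the cotransporter Slc12a2 a little. Of the 7 tested genes 3 were called, all lower, where 59.4% of the genes tested were called, 29.9% higher and 29.5% lower. The background channels and the beta subunit Atp1b3 did not pass the test.

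Kcnj2 stood at 6.60, 6.35 and 7.10 CPM with IL-4 and PGE2, against 40.1, 29.4 and 32.0 CPM with IL-4 and 88.7, 84.4 and 83.5 CPM unstimulated. The groups were far apart, and the fall from IL-4 was 5.06-fold (log2 change -2.34 ± 0.12, adjusted p = 5.18e-13). Kcnn4 stood at 84.6, 70.6 and 80.9 CPM with PGE2 against 282, 266 and 294 CPM with IL-4. The fall was 3.56-fold (log2 change -1.83 ± 0.06, adjusted p = 9.71e-17), with no overlap. Slc12a2, at 8.59, 7.98 and 8.17 against 11.4, 12.4 and 10.0 CPM, fell by 26.6% (-0.45 ± 0.12, adjusted p = 0.00321), and its groups were also separate.

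Kcnk6 was at 125, 125 and 113 CPM with PGE2, just under the IL-4 libraries, and its log2 difference of -0.11 ± 0.05 missed the threshold (adjusted p = 0.0749). With scaling to library totals alone the difference was -0.133 and passed it (adjusted p = 0.0348). Atp1b3, at 289, 298 and 282 CPM, overlapped with IL-4 (-0.04 with an adjusted p of 0.417), as did Kcnk13 at 70.2, 65.0 and 60.6 CPM (-0.05 ± 0.07, adjusted p = 0.525). Kcnk12 had 11, 6 and 6 counts against 5, 4 and 6 (0.68 ± 0.45, adjusted p = 0.204).

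Dendritic cell markers moved with PGE2: the 5 genes summed to 315 to 388 CPM, against 650 to 773 CPM with IL-4 and 353 to 394 CPM unstimulated. The 6 stromal markers, mostly Pecam1, summed to 160 to 212 CPM with PGE2 and 65.2 to 81.8 CPM with IL-4. No marker of either list was at 0 in these groups, and their part in the PGE2 results was not tested.

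Across the 11 lists, members included, PGE2 changed 33 of the 53 tested genes, 17 higher and 16 lower, which is 62.3% beside 59.4% of all genes. All 5 tested cation-chloride cotransporters, Slc12a2 included, were called, 3 higher and 2 lower, with Slc12a9 at 42.4 ± 1.10 against 32.5 ± 0.751 CPM (mean ± SD, n = 3; log2 change 0.38 ± 0.07). Slc12a5, among those called higher, was low, at 0.997, 1.46 and 1.26 CPM against 0.349, 0.399 and 0.859 CPM with IL-4. Its call was lost in 4 of 12 refits (adjusted p at most 0.0652). Of the groups compared only PGE2 had all Slc12a5 libraries above the filter on low counts. The Slc12a5 call is thus not read as support, although it is in the counts given here. Of the volume-regulated and ATP-gated channels, 4 of 7 rose and 2 fell: Lrrc8c rose by 0.92 ± 0.07 and Lrrc8d by 0.62 ± 0.06, and P2rx7, an ATP-gated channel through which potassium leaves the cell, fell by 0.41 (adjusted p = 6.27e-06). The pump regulator Fxyd5 rose by 0.43 ± 0.04 (adjusted p = 8.08e-09). Sgk1 stood at 54.3 ± 2.26 CPM with PGE2, lower than with IL-4 by 1.07 on the log2 scale (log2 change -1.07 ± 0.06). The sodium-proton exchanger Slc9a7 (-1.33 ± 0.14) and the ubiquitin ligase adaptor Klhl3 (1.33 ± 0.15) were also called.

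**Figure D2:**
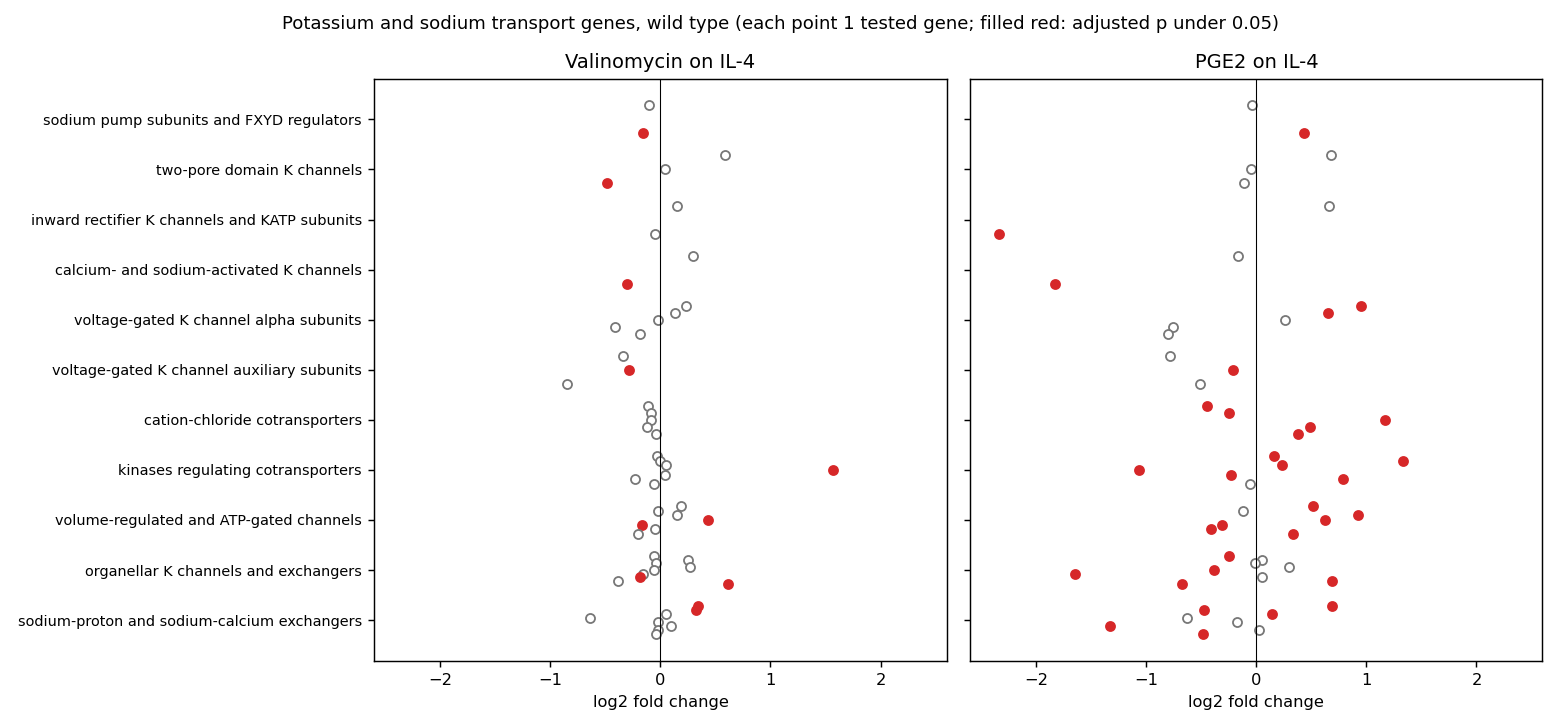
Log2 fold change of every tested gene on the 11 transport lists with valinomycin (left) and PGE2 (right), each against IL-4 in wild type cells; filled red points passed an adjusted p of 0.05. Sgk1, at 1.57, is the valinomycin point farthest from 0, and the other valinomycin points lie between -0.85 (Kcne3, not called) and 0.61 (Tmem38b); with PGE2, Kcnj2 is at -2.34 and Kcnn4 at -1.83.

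Set directly against each other in wild type cells, PGE2 and valinomycin differed in 4 of the 7 tested genes, where 63.2% of all genes differed, 31.7% higher with PGE2 and 31.5% lower. Kcnj2 and Kcnn4 were lower with PGE2, by 4.87-fold (log2 difference -2.29, adjusted p = 6.36e-13) and 2.89-fold (-1.53, adjusted p = 1.82e-15). Kcnk6 was higher with PGE2 (0.38, adjusted p = 1.11e-06). Slc12a2 was lower with PGE2 by 20.5% (-0.33, adjusted p = 0.0236). The Slc12a2 call was lost without PGE2 library 2 (adjusted p = 0.0698), PGE2 library 3 (0.0505) or valinomycin library 3 (0.14), and with DESeq2 (0.0636). Kcnk12, Kcnk13 and Atp1b3 had log2 differences of 0.09, -0.09 and 0.06, none of which passed (adjusted p at least 0.224).

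The effect of IL-4 alone was read against unstimulated wild type cells. It raised the background channel Kcnk6 and lowered the inward rectifier Kcnj2. Kcnk12 is left out of this count, because only in the unstimulated group were all of its libraries above the filter on low counts. The 2 called were thus among 6 genes, where 46.4% of all genes were called, 24% higher and 22.4% lower. Kcnk6 rose 1.64-fold from 81.1, 82.2 and 75.7 CPM to 135, 128 and 128 CPM (log2 change 0.71 ± 0.05, adjusted p = 5.46e-11). Kcnj2 fell 2.53-fold (-1.34 ± 0.08, adjusted p = 1.32e-11), from the unstimulated values given above. In both the groups were separate. Kcnk12 had 16, 22 and 23 counts unstimulated and 5, 4 and 6 counts with IL-4, or 1.36, 2.05 and 1.69 CPM against 0.436, 0.319 and 0.469 CPM, which is given as a description without a test. The 6 stromal markers summed to 3.3 to 4.51 CPM unstimulated and to 65.2 to 81.8 CPM with IL-4, and the 5 dendritic cell markers to 353 to 394 and 650 to 773 CPM. Their part in the IL-4 results was not tested.

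Kcnn4, at 280, 287 and 307 CPM unstimulated, overlapped with its IL-4 libraries (log2 difference -0.06, adjusted p = 0.46). Atp1b3 stood at 291, 289 and 298 CPM unstimulated (0.02, adjusted p = 0.685), Kcnk13 at 63.7, 67.0 and 66.6 CPM (0.04, adjusted p = 0.628) and Slc12a2 at 13.1, 11.5 and 13 CPM (-0.16, adjusted p = 0.261), and all 3 overlapped with IL-4. In order of level, Kcnj2 was highest unstimulated, then with IL-4 and IL-4 with valinomycin, which overlapped, then with PGE2. Kcnk6 was highest with IL-4, then PGE2, valinomycin and unstimulated, and only the IL-4 to PGE2 step missed the threshold among the steps tested here.

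Across the 11 lists, members included, IL-4 changed 29 of 53 tested genes, 15 higher and 14 lower (54.7% beside 46.4% of all genes). Kcnk12 and Kcnd3 are in that count although they could pass the filter only through groups where they were high. Kcne3 and Kcnj10 are in it too. Of the groups compared, only the unstimulated group had all of their libraries above the filter, so these 2 calls are not read as support. Kcnd3, a voltage-gated alpha subunit, stood at 2.44, 1.43 and 2.97 CPM with IL-4 and at 0, 0 and 0.0733 CPM unstimulated, which is 1 read in all, so no fold or test is given. The potassium-chloride cotransporters Slc12a7 (0.80 ± 0.05) and Slc12a4 (0.66 ± 0.05) rose. The kinase Wnk1, which regulates these cotransporters and Slc12a2, rose (0.56 ± 0.05), and Sgk3 fell (-0.71 ± 0.07). Slc8b1 fell from 106 ± 5.43 to 58.2 ± 3.12 CPM (-0.86 ± 0.06), Tmem38b fell by 0.79 (adjusted p = 7.11e-08), and the inward rectifier Kcnj10, known from glia, fell at a low level, from 2.25 ± 0.340 to 0.909 ± 0.353 CPM.

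**Figure D3:**
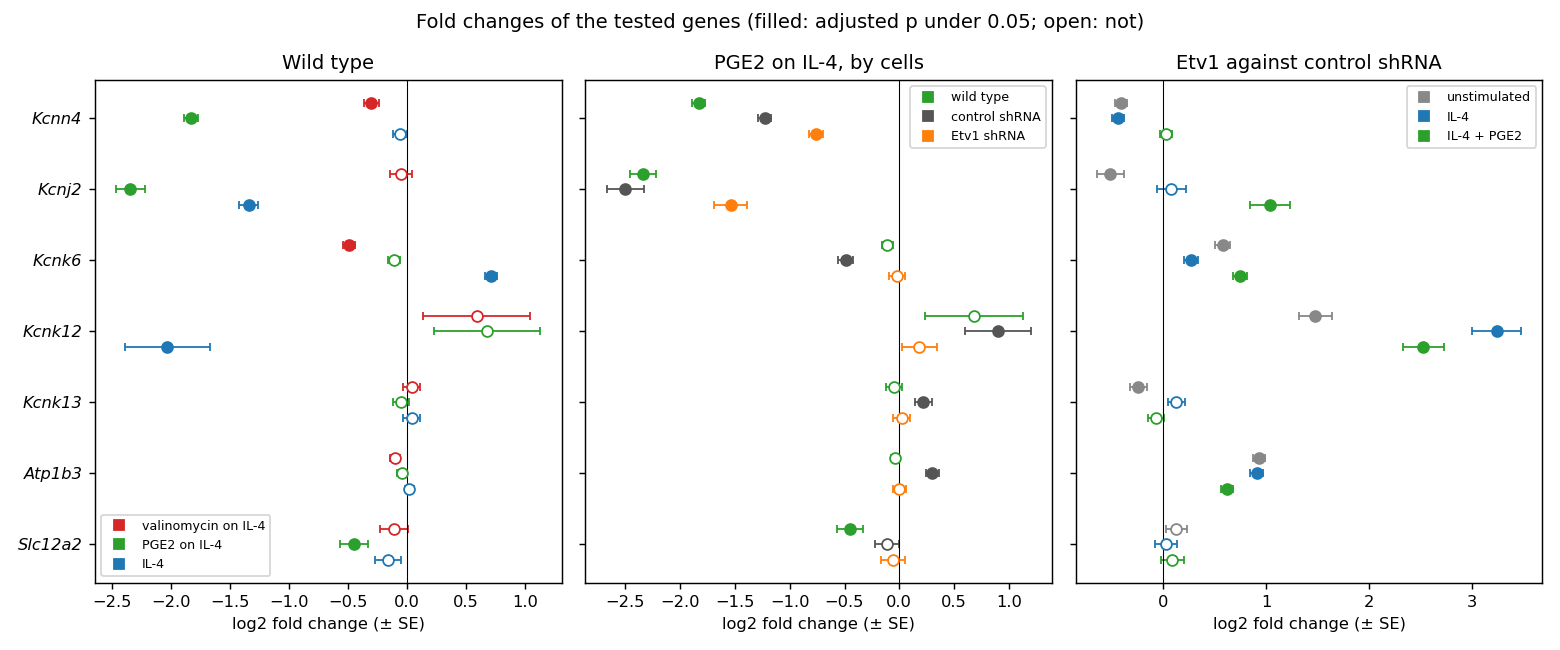
Log2 fold change ± SE of the 7 tested genes: valinomycin, PGE2 and IL-4 in wild type cells (left), PGE2 by kind of cell (middle) and Etv1 against control shRNA by condition (right); filled points passed an adjusted p of 0.05, and the filled Kcnk12 point with IL-4 in wild type cells is not read as support. Kcnj2 and Kcnn4 lie left of 0 with PGE2 in all 3 kinds of cells, and Kcnk12 and Atp1b3 lie right of 0 under the Etv1 hairpin in all 3 conditions.

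The shRNA experiment repeated IL-4 and PGE2 in transduced cells and was fitted apart, so levels are compared only within it. With IL-4, control shRNA cells had Kcnk6 higher and Kcnj2 and Kcnk12 lower, 3 of 7 tested genes where 34.3% of all 12382 genes tested were called, 17.2% higher and 17.1% lower. Kcnk6 rose from 67.8, 68.7 and 68.1 CPM to 115, 110 and 122 CPM (log2 change 0.76, adjusted p = 8.55e-08). Kcnj2 fell from 67.5, 62.1 and 67.9 CPM to 26.3, 29.5 and 28 CPM (-1.24, adjusted p = 5.42e-07). Kcnk12 fell 7.37-fold, from 8.66, 13 and 10.9 CPM to 1.17, 2.26 and 1.01 CPM (-2.88, adjusted p = 1.22e-08). No groups of these 3 overlapped. Kcnn4 at 653, 601 and 709 against 615, 595 and 653 CPM with IL-4 (-0.08, adjusted p = 0.381) and Atp1b3 at 251, 256 and 259 against 258, 257 and 265 CPM (0.03, adjusted p = 0.768) did not pass.

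PGE2 in control shRNA cells changed 6 of the 7 tested genes, 3 lower and 3 higher, where 59.4% of all genes were called, 30.1% lower and 29.3% higher. Kcnj2 fell 5.64-fold to 3.78, 5.16 and 5.32 CPM (log2 change -2.50, adjusted p = 6.7e-10), and Kcnn4 fell 2.35-fold to 268, 252 and 273 CPM (-1.23, adjusted p = 3.72e-12). Kcnk6 fell to 85.9, 75.1 and 85.2 CPM (-0.49, adjusted p = 1.02e-05), a drop of 28.9% with separate groups. Atp1b3 rose by 23.1% to 335, 313 and 314 CPM (0.30, adjusted p = 0.000292). The 5 dendritic cell markers summed to 10.2 to 18.4 CPM with PGE2 against 100 to 116 CPM with IL-4. The 6 stromal markers summed to 39.3 to 55.8 CPM against 9.94 to 21.2 CPM, with Col3a1 at 0 in both groups and Cxcl12 at 0 with IL-4. The part of these markers in the PGE2 results was not tested.

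The calls of the other 2 risers, Kcnk12 (0.90, adjusted p = 0.0144) and Kcnk13 (0.22, adjusted p = 0.0189), were not stable under the alternatives. With only the groups of the contrast in the fit, both missed the threshold (adjusted p = 0.0557 and 0.0738), and with scaling to library totals Kcnk13 did (0.161, adjusted p = 0.0939). Kcnk12 stood at 2.56, 3.99 and 2.19 CPM, overlapping with IL-4, and missed the threshold without IL-4 library 1 (0.72, adjusted p = 0.0933), IL-4 library 3 (adjusted p = 0.0642) or PGE2 library 2 (adjusted p = 0.0595). Kcnk13 stood at 125, 149 and 121 CPM against 111, 107 and 120 CPM. It missed the threshold without PGE2 library 2 (0.124, adjusted p = 0.145), IL-4 library 1 (adjusted p = 0.0539) or IL-4 library 2 (adjusted p = 0.0748), and without all control libraries numbered 2 (0.087, adjusted p = 0.258). Slc12a2, at 13.5, 13.8 and 13 against 15.6, 14.2 and 13.5 CPM, did not pass (-0.11, adjusted p = 0.375).

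**Figure D4:**
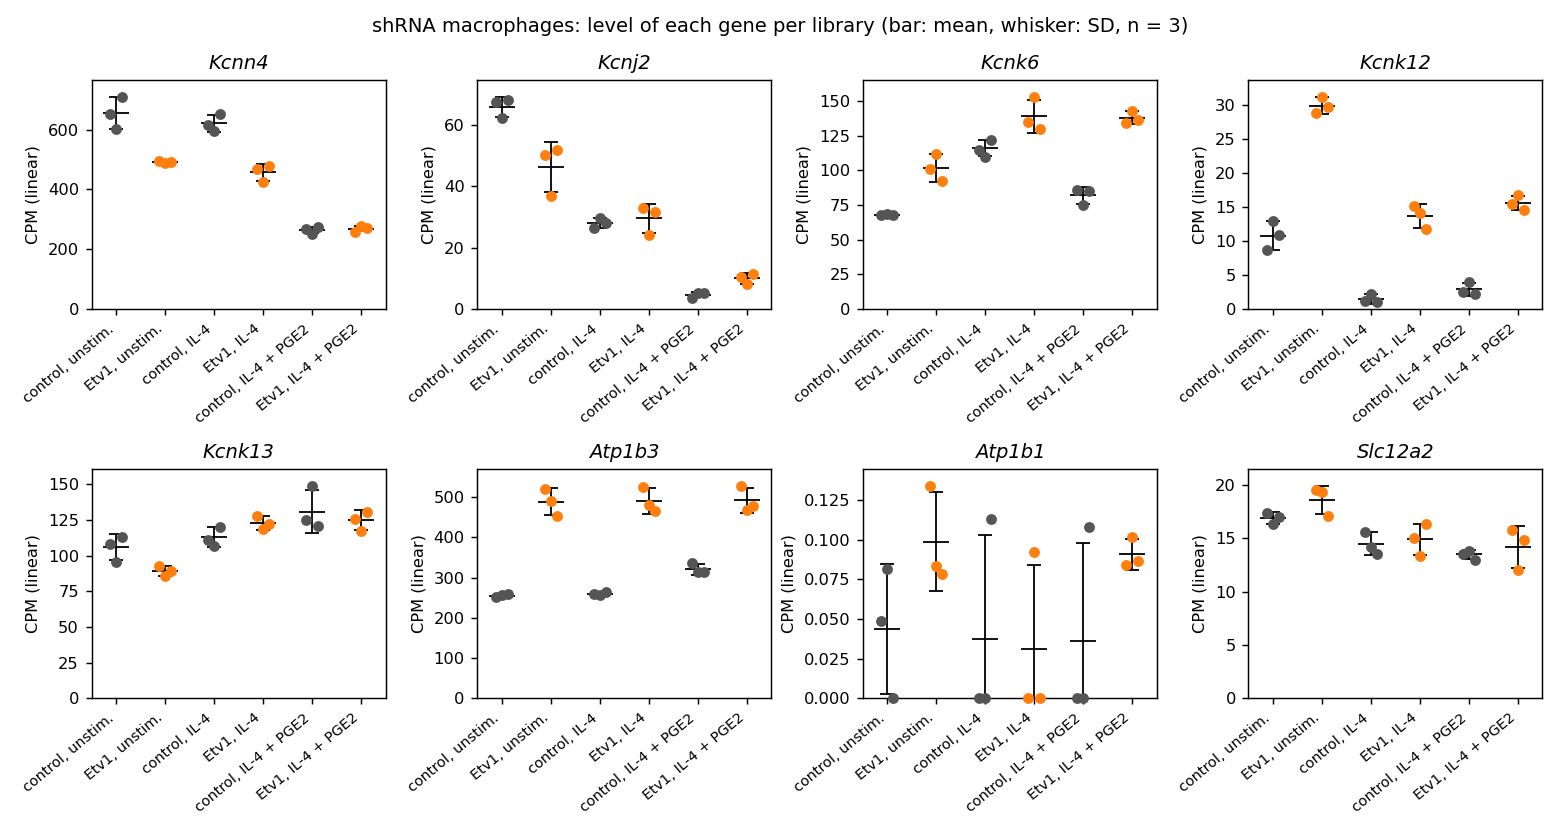
Level in CPM (linear axis from 0, own scale for each gene) of the 8 genes in each shRNA library, control shRNA in grey and Etv1 shRNA in orange, by condition, with the mean and SD of 3 libraries. Atp1b3 and Kcnk12 are higher with the Etv1 hairpin in every condition, Kcnn4 is lower unstimulated and with IL-4, and both hairpins fall to 252 to 277 CPM of Kcnn4 with PGE2.

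The Etv1 hairpin, under which Etv1 was lower but still detected, was compared with the control hairpin in each condition for the same genes. The pump's beta subunit Atp1b3 and Kcnk12, the close relative of the background channel Kcnk13, were higher in all 3 conditions, Kcnk6 was also higher in all 3, and Kcnn4 was lower in unstimulated and IL-4 cells. Of the 7 tested genes 6 were called unstimulated, 4 with IL-4 and 4 with IL-4 and PGE2, where 51.7%, 51% and 54.3% of all genes were called. Higher and lower members numbered 3 and 3 unstimulated (24.9% and 26.8% of all genes), 3 and 1 with IL-4 (25.4% and 25.6%) and 4 and 0 with IL-4 and PGE2 (27.6% and 26.7%). With so many genes called, these counts say little about the members.

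Atp1b3 stood at 521, 490 and 454 CPM with the Etv1 hairpin unstimulated, 526, 481 and 465 CPM with IL-4 and 528, 468 and 479 CPM with IL-4 and PGE2. Every one of these 9 libraries lay above all 9 control libraries, whose highest value was 335 CPM. The log2 changes were 0.93, 0.91 and 0.62 (adjusted p = 2.78e-10, 4.08e-10 and 6.15e-08), or 1.91-fold, 1.88-fold and 1.54-fold.

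Kcnk12 stood at 28.8, 31.2 and 29.7 CPM unstimulated, 15.2, 14.2 and 11.8 CPM with IL-4 and 15.5, 16.8 and 14.6 CPM with IL-4 and PGE2. It exceeded the control hairpin by 2.80-fold, 9.46-fold and 5.76-fold (log2 changes 1.48, 3.24 and 2.53; adjusted p = 2.31e-07, 1.76e-09 and 4.04e-09), with no overlap in any condition. Kcnk6 stood at 101, 112 and 92.1 CPM unstimulated, 135, 153 and 130 CPM with IL-4 and 134, 143 and 136 CPM with IL-4 and PGE2. Its log2 changes were 0.58, 0.27 and 0.75 (adjusted p = 2.45e-06, 0.00404 and 6.41e-08).

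Kcnn4 stood at 495, 489 and 491 CPM unstimulated and 467, 425 and 479 CPM with IL-4, all below the control hairpin, under which they were 1.33-fold and 1.36-fold higher (log2 changes -0.41 and -0.44, adjusted p = 1.49e-05 and 6.82e-06). With IL-4 and PGE2 it stood at 259, 277 and 271 CPM, overlapping with the control hairpin (0.03, adjusted p = 0.748). Kcnj2 went both ways: it was lower unstimulated, at 50.3, 36.9 and 51.8 CPM (-0.51, adjusted p = 0.00235), overlapped with IL-4 at 32.8, 24.2 and 31.5 CPM (0.08, adjusted p = 0.643), and was higher with IL-4 and PGE2, at 10.5, 8.13 and 11.5 CPM (1.04, adjusted p = 0.000141).

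Kcnk13 was lower unstimulated, at 92.9, 85.8 and 89.2 against 108, 95.4 and 113 CPM (-0.24, adjusted p = 0.0136). This call was lost with scaling to library totals (-0.110, adjusted p = 0.264), without Etv1 shRNA library 2 (adjusted p = 0.0575) and without control library 3 (adjusted p = 0.0671). Slc12a2 did not pass in any condition (log2 differences of 0.13, 0.03 and 0.09). The median log2 difference of all genes was -0.012, -0.004 and -0.001 in the 3 hairpin comparisons. With scaling to library totals alone it was 0.118, 0.123 and 0.157. Under that scaling the directions of Atp1b3, Kcnk12 and Kcnk6 did not change, while Slc12a2 unstimulated (0.263, adjusted p = 0.0355), Kcnk13 with IL-4 (0.252, adjusted p = 0.0127) and Kcnn4 with IL-4 and PGE2 (0.184, adjusted p = 0.0172) passed the threshold.

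Macrophage marker sums of the 2 hairpins overlapped in each condition, for instance 4440 to 4960 CPM with the Etv1 hairpin and 4640 to 5200 CPM with the control hairpin unstimulated. Single macrophage markers differed in both directions: unstimulated, Adgre1 was at 2120 ± 257 CPM with the Etv1 hairpin against 1060 ± 214 CPM (mean ± SD, n = 3), while Csf1r was at 1420 ± 39.3 against 2220 ± 81.2, Cd68 at 638 ± 20.2 against 1120 ± 17.5 and Fcgr1 at 18.2 ± 7.90 against 76.0 ± 30 CPM. Dendritic cell markers summed to 37.5 to 47.0 CPM with IL-4 under the Etv1 hairpin, with Ccr7 at 0, and to 100 to 116 CPM under the control hairpin. The 6 stromal markers summed to 21.8 to 22.9 against 39.3 to 55.8 CPM with IL-4 and PGE2, with Col3a1 at 0 in both. The 5 mast cell and basophil markers summed to 3.75 to 5.38 against 0.407 to 0.831 CPM unstimulated, mostly Gata2, with Cpa3, Mcpt8 and Ms4a2 at 0 in both. Their part in the hairpin results was not tested.

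IL-4 and PGE2 were then followed within Etv1 shRNA cells, and the difference from control shRNA cells was tested directly. IL-4 changed 5 of the 7 tested genes there, 2 higher and 3 lower, where 18% of all genes were called, 10.9% higher and 7.16% lower. Kcnk6 rose (log2 change 0.45, adjusted p = 0.000121), and so did Kcnk13, from 92.9, 85.8 and 89.2 to 128, 119 and 122 CPM (0.46, adjusted p = 0.00021). Kcnk12 fell 2.18-fold (-1.13, adjusted p = 2.87e-05), Kcnj2 fell 1.57-fold (-0.65, adjusted p = 0.00174), and Slc12a2, from 19.5, 19.3 and 17.1 to 15.0, 13.3 and 16.3 CPM, fell by 19.8% (-0.32, adjusted p = 0.0396). The Slc12a2 call was lost with DESeq2 (adjusted p = 0.0672) and without any 1 of unstimulated libraries 1 and 2 and IL-4 libraries 1 and 2 (adjusted p from 0.086 to 0.179).

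The difference between hairpins in the IL-4 effect passed the test for 1 of 7 genes, Kcnk12, where 4.51% of all genes passed, 2.71% with a higher and 1.81% with a lower value. Kcnk12 lost less of its level under the Etv1 hairpin, by 1.76 ± 0.30 on the log2 scale (adjusted p = 0.00187). For Kcnj2 the difference was 0.59 (adjusted p = 0.0866), for Kcnk13 0.37 (0.0635) and for Kcnk6 -0.31 (0.112). These 3 passed under some alternatives, Kcnj2 without IL-4 library 2 of the Etv1 hairpin (0.72, adjusted p = 0.0262), Kcnk13 without unstimulated control library 2 (0.43, adjusted p = 0.0209), and Kcnk6 without unstimulated library 3 or IL-4 library 2 of the Etv1 hairpin (adjusted p = 0.0496 and 0.0459). With the replicate number as a block, Kcnj2 (0.599, adjusted p = 0.00909) and Kcnk13 (0.367, adjusted p = 0.0356) passed. Kcnk13 also passed without the filter (adjusted p = 0.0352) and with only the groups of the contrast (adjusted p = 0.0376). Without the control libraries numbered 2, Kcnk13 (0.375, adjusted p = 0.00463) and Kcnk6 (-0.364, adjusted p = 0.0271) passed.

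PGE2 in Etv1 shRNA cells lowered 2 of the 7 tested genes, where 47.5% of all genes were called, 24.6% higher and 22.8% lower. Kcnj2 fell 2.91-fold (log2 change -1.54, adjusted p = 2.25e-07) and Kcnn4 1.70-fold (-0.76, adjusted p = 7.67e-09). Kcnk6, Atp1b3, Kcnk13 and Slc12a2 had log2 differences between -0.06 and 0.02, and Kcnk12 had 0.18, none of which passed (adjusted p at least 0.378).

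The difference between hairpins in the PGE2 effect passed for 4 of 7 genes, 3 with a higher and 1 with a lower value, where 11.6% of all genes passed, 6.03% higher and 5.58% lower. PGE2 lowered Kcnj2 less under the Etv1 hairpin, by 0.95 ± 0.23 on the log2 scale (adjusted p = 0.0113), and Kcnn4 less by 0.47 ± 0.09 (adjusted p = 0.00139). For Kcnn4 the hairpins differed with IL-4 (-0.44) and overlapped with IL-4 and PGE2 (0.03), as given above. Kcnk6, which fell in control cells and did not pass in Etv1 shRNA cells, differed by 0.47 ± 0.10 (adjusted p = 0.00454). Atp1b3, which rose in control cells and did not pass in Etv1 shRNA cells, differed by -0.30 ± 0.09 (adjusted p = 0.029). In wild type cells, fitted apart, neither Kcnk6 (-0.11, adjusted p = 0.0749) nor Atp1b3 (-0.04, adjusted p = 0.417) had passed with PGE2. For Kcnk12, Kcnk13 and Slc12a2 the differences between hairpins of -0.72, -0.20 and 0.05 did not pass. These differences, the PGE2 comparisons and the hairpin comparisons draw on the same libraries and are not independent of each other.

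Some of these calls rest on few libraries. The Kcnj2 difference was 0.910 with an adjusted p of 0.0631 without the control libraries numbered 2. The Atp1b3 difference missed the threshold without any 1 of 5 libraries, which were IL-4 library 1 and PGE2 libraries 2 and 3 of the Etv1 hairpin and IL-4 libraries 1 and 2 of the control hairpin, with adjusted p from 0.0502 to 0.0906.

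The genes most like each member in pattern were taken as those with the highest Pearson correlation of log2 CPM over the 12 wild type libraries, which share groups and depth. They were Polr1a (r = 0.995) and Ung (0.993) for Kcnn4, Fam49a and Lipa (both 0.993) for Kcnj2, Dok2 (0.982) and Triap1 (0.967) for Kcnk6, and Calcrl (0.95) and Mbnl2 (0.947) for Kcnk12. For Slc12a2 they were Ap1ar (0.951) and Dscc1 (0.944), for Atp1b3 Gltp (0.923) and Gnpat (0.911), and for Kcnk13 Gtf3c5 (0.902) and Slfn2 (0.864). The correlations were lowest for Kcnk13 and Atp1b3, whose wild type group means differed least.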

How the data were processed

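Libraries were made with a stranded TruSeq mRNA kit, per the labels' protocols. The authors deposited whole-number read counts for each Ensembl gene and library. The submitters' processing notes list STAR, featureCounts, DESeq2, deepTools and GRCm38, without a role. Versions and the strand setting of the counting are not given in the sources used here. Of 43629 gene IDs, 42548 (97.52%) were found in GENCODE M21, and the others held 0.153% of reads.

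The deposited counts were tested with edgeR 4.0.16 in R 4.3.3 (TMM scaling, filterByExpr, robust quasi-likelihood fit). Each experiment was fitted on its own with all of its groups, over 12824 genes for wild type and 12382 genes for shRNA cells. Calls are at 0.05 after Benjamini-Hochberg adjustment over all genes of a fit. Standard errors are the log2 fold change divided by the square root of its F statistic. CPM rest on TMM effective library sizes, and RPKM on the summed length of a gene's merged exons. In simulated counts for the valinomycin comparison with 12824 genes, the test recovered 78% of 100 genes changed by 0.5 and 88% of 100 changed by 1 on the log2 scale, with 15 of 181 calls false. For IL-4 in control shRNA cells, with 12382 genes, it recovered 55% and 84%, with 7 of 146 calls false. These simulations changed only 200 genes and drew the libraries independently. Far more genes were called in the data, so these shares need not hold there.

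The members, the 11 transport lists, the 8 marker lists and the tests were chosen with earlier results of these data known. A few genes of these lists are not reported here and enter no list count. Named are the members, Etv1, from every transport list up to 4 tested genes that ranked first by adjusted p in a wild type comparison, and the 2 genes closest to a member in pattern. Whether replicate numbers pair libraries was checked by correlating deviations from group means. Same-numbered libraries of 1 hairpin deviated together (r from 0.106 to 0.49 in the 4 comparisons within a hairpin), a pairing read from the data and not from the labels. Libraries with different numbers in the shRNA experiment had r from -0.383 to 0.184, so the 2 ranges overlapped. Between hairpins and in wild type cells at least 1 same-numbered pair per comparison had r under 0.1. Alternatives were DESeq2 1.42.0, library totals or RLE for scaling, no filter, a replicate block, only the groups of a contrast, and leaving out each library in turn. Leaving out the control shRNA libraries numbered 2 was added after the data were seen.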

Additional observations from a re-analysis of the deposited data

Results flagged for a closer look

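For 4 of the genes described above, the effect of PGE2 on cells given IL-4 differed between the Etv1 and the control hairpin by a test of the difference itself. The log2 difference in the PGE2 effect was 0.95 for Kcnj2, 0.47 for Kcnn4, 0.47 for Kcnk6 and -0.30 for Atp1b3. In wild type cells Kcnj2 and Kcnn4 also fell with PGE2, while Kcnk6 (-0.11) and Atp1b3 (-0.04) did not pass the test. For Kcnk12 the effect of IL-4 differed between hairpins, by 1.76 on the log2 scale. Groups of 3 libraries were not searched for a single outlying value of a gene.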

How the results depend on the processing

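Of 1235 recomputed values of the members, 1151 kept their direction and their side of the threshold, 28 lost a call, 15 gained one and 41 turned direction. The falls of Kcnk6 and Kcnn4 with valinomycin were called under every alternative run. The number of members whose IL-4 effect differed between hairpins moved from 1 to 2 without the filter, to 2 with only the groups of the contrast, to 3 without the control shRNA libraries numbered 2 and to 1 to 3 when 1 library was left out (3 without Etv1 shRNA IL-4 library 2, and 2 without Etv1 shRNA unstimulated library 3 or control unstimulated library 2). With the replicate number as a block it was 3 (Kcnj2 at 0.599 with an adjusted p of 0.00909, Kcnk13 at 0.367 with 0.0356, and Kcnk12). For all genes, the count of 559 was 984 with the replicate block, 1100 without the libraries numbered 2 and 360 to 762 when 1 library was left out (361 and 360 without control IL-4 library 1 or 3). Beside these, the replicate block changed no call of a member. Between hairpins and in wild type cells libraries share only a number, although 17 of 18 shRNA and 9 of 12 wild type libraries correlated best with their own number. The cause of these moves was not tested.

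The values that turned direction were called neither before nor after. With library totals these were Atp1b3 with IL-4 in wild type (-0.006), control (-0.008) and Etv1 shRNA cells (-0.032), with PGE2 in Etv1 shRNA cells (-0.025), and Kcnk13 with PGE2 in Etv1 shRNA cells (-0.007) and between hairpins under IL-4 and PGE2 (0.085). Atp1b3 with IL-4 in Etv1 shRNA cells was -0.002 with RLE, -0.011 without the filter, -0.006 with only the groups of the contrast and -0.006 without the libraries numbered 2, and with PGE2 it was -0.002 and -0.010 in the last 2 settings. Kcnn4 between hairpins under IL-4 and PGE2 was -0.035 without the libraries numbered 2. Leaving out 1 library at a time gave ranges across 0 for Kcnj2 (-0.145 to 0.083) and Kcnk13 (-0.044 to 0.101) with valinomycin and for Kcnk12 between PGE2 and valinomycin (-0.189 to 0.422). In Etv1 shRNA cells they were -0.046 to 0.056 for Atp1b3 with IL-4, and with PGE2 -0.050 to 0.056 for Atp1b3, -0.066 to 0.053 for Kcnk6, -0.015 to 0.062 for Kcnk13 and -0.146 to 0.039 for Slc12a2. Between hairpins they were -0.037 to 0.108 for Slc12a2 under IL-4, and under IL-4 and PGE2 -0.010 to 0.054 for Kcnn4 and -0.132 to 0.022 for Kcnk13. For the difference in the IL-4 effect they were -0.074 to 0.028 for Atp1b3 and -0.092 to 0.027 for Kcnn4, and in the PGE2 effect -0.032 to 0.154 for Slc12a2. Of 255 called results of Etv1 and the other transport genes, 74 lost a call in at least 1 refit and 0 turned direction. Depth limits Atp1b1 most, with at most 3 counts in a library, and then Kcnk12 in wild type cells.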

Other observations

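Some other transport genes differed between the hairpins in the shRNA experiment. They were chosen after their values were seen, and Kcnh3 and Atp1b2 lie outside the rule for named genes. Kcna3, a voltage-gated potassium channel of immune cells, stood at 7.73, 7.01 and 6.62 CPM unstimulated with the control hairpin and at 0.941, 1.09 and 1.02 CPM with the Etv1 hairpin (log2 change -2.80 ± 0.30, edgeR adjusted p = 2.15e-07). With IL-4 and PGE2 the values were 17.8, 12.1 and 19.4 against 1.68, 2.13 and 1.99 CPM (-3.11 ± 0.24, adjusted p = 2.96e-09). No groups overlapped. Kcnh3, another voltage-gated channel, was near 0 with the control hairpin, at group means of 0.0272, 0.0244 and 0.0526 CPM, and at 0.738, 1.07 and 1.36 CPM with the Etv1 hairpin, from few counts. Only libraries of the Etv1 hairpin could carry Kcnh3 past the filter on low counts, so its difference is a description without a test.

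Atp1b2, another beta subunit gene of the pump, stood at 1.46, 2.23 and 2.73 CPM with PGE2 in control shRNA cells, against 0.146, 0.113 and 0.225 CPM with IL-4. In Etv1 shRNA cells given PGE2 it stood at 0.336, 0.203 and 0.432 CPM. It passed the filter on low counts only through the control PGE2 libraries, so its higher level there is a description without a test. The same holds for its difference between hairpins. Sgk1, which rose with valinomycin in wild type cells, was lower under the Etv1 hairpin unstimulated, at 48.0, 38.9 and 47.2 against 113, 128 and 123 CPM (-1.44 ± 0.13, adjusted p = 1.11e-07).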
